A study of Homo sapiens with 4 samples.

Results

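Genes that hematologists use to place a myeloid cell, 10 in all, were followed in MV4-11 leukemia cells with lowered IRF1. They comprised 6 surface or compartment markers (CD14, CD33, CD34, CD68, CD86 and FCGR1A) and 4 growth factor receptors (CSF1R, CSF2RA, CSF3R and KIT). They were chosen by symbol after the Ensembl identifiers of the table had been matched to gene names, and all 10 had a row among the 23622 genes. MV4-11 is a human acute myeloid leukemia (AML) line of myelomonocytic character that carries a KMT2A fusion and an internal tandem duplication of FLT3. The data were 4 RNA-seq libraries, 2 of the control group (NC) and 2 of the knockdown group (sh-IRF1). The sample labels give all 4 the genotype WT, the NC libraries no treatment, and the sh-IRF1 libraries IRF1 knockdown. The table's own headers call the controls sh_NC, and the study's methods describe lentiviral hairpins in a pLKO.1 vector with puromycin selection of the cells. Which of the study's hairpins was in which knockdown library is not stated. The comparison addresses what a lowered level of IRF1, an interferon-inducible transcription factor, does to the transcriptome of AML cells.

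Myeloid cells change their surface as they mature. CD34 and KIT mark stem and progenitor cells, CD33 appears with commitment to the myeloid lineage, and CD14, FCGR1A, CD68 and CD86 are features of monocytes and macrophages. The receptors CSF1R, CSF2RA, CSF3R and KIT bind M-CSF, GM-CSF, G-CSF and stem cell factor, the secreted or membrane-bound proteins that keep progenitors alive and steer them towards macrophages or granulocytes.

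The libraries held 17635908 to 18695337 reads, and mitochondrial genes took 3.92 to 4.51% of them. Values are normalized counts, that is, reads divided by 1 size factor per library. IRF1 itself had normalized counts of 785 and 738 in NC and of 430 and 432 in sh-IRF1. It fell by 0.82 on the log2 scale (SE 0.0904, limma adjusted p = 1.69e-10), to 56.6% of the NC mean, with 22.9% of its exonic bases shared with other annotated genes. Summed defining markers of the myelomonocytic lineage stood at 36917 to 37042 in NC and 33404 to 33547 in sh-IRF1. FLT3 alone made up 17391 and 17412 of these in NC and 12745 and 12634 in sh-IRF1, so the fall of the sums rests on FLT3. Of the 9 markers, 3 were higher with an adjusted p under 0.05 (33.3%, against 20.3% of all genes). Another 3 were lower (33.3%, against 21.9%). The summed markers of B cells stood at 128 to 144 in NC and 270 to 331 in sh-IRF1. Without CD79A the other 4 summed to 78.0 to 101 and 79.6 to 80.6. Those of erythroid cells (only KLF1 was measured) stood at 27.7 to 28.8 and 10.3 to 11.9. For T cells 4 of 7 markers had a row, none passed the filter, and the sums were 20.5 in both NC libraries and 7.96 to 9.37 in sh-IRF1. For NK cells 3 of 6 summed to 2186 to 2196 and 2085 to 2129, and for megakaryocytes 4 of 6 summed to 124 to 145 and 62.8 to 77.6. Their part in the differences below was not tested. The labels do not say whether the libraries of a group came from separate cultures, so p-values measure only the spread between these libraries.

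The monocyte markers CD14, FCGR1A and CD86 were lower after IRF1 knockdown, CSF1R was slightly lower, and the receptor chains CSF2RA and CSF3R were higher. CD33, CD68 and KIT did not pass the test, and CD34 was at the limit of detection. Among the 9 members tested, limma gave an adjusted p under 0.05 to 2 that were higher and to 4 that were lower, where 20.3% of the 14120 genes tested were higher and 21.9% lower. With a log2 fold change beyond 0.5 as well, 0 members were called higher, against 8.27% of all genes, and 2 were called lower (CD14 and FCGR1A), against 7.56%. Over the 9 members the median log2 fold change came to 0.03, and that of all tested genes was -0.0019. The 5 tested markers had a median of -0.48 (range -2.81 to 1.09) and the 4 receptors a median of 0.44 (range -0.19 to 0.93), ranges that overlap, and the difference between these groups of genes was not tested. In RNA from whole cultures, fewer cells with a transcript and less of it per cell cannot be told apart.

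**Figure D1:**
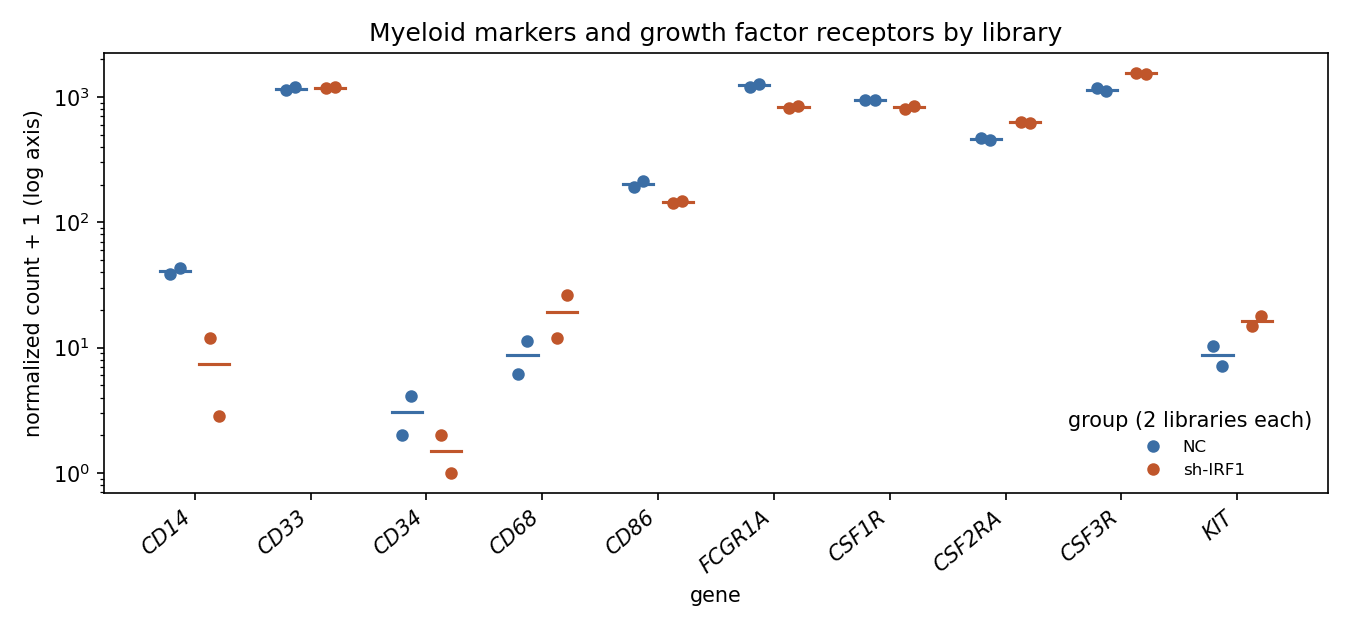
Normalized count plus 1 (log axis) of the 10 members in each library, with NC in blue, sh-IRF1 in orange and group means as bars. The NC and sh-IRF1 points of CD14, FCGR1A, CD86, CSF1R, CSF2RA and CSF3R do not overlap. Neither do those of CD68 and KIT, which did not pass the test. CD33 overlaps, with means of 1158 and 1182, and CD34 is at 0 to 3 reads. The share of all genes without overlap was not counted. With 2 against 2 libraries, a gene that does not differ separates fully with a probability of 0.333.

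CD14 is the co-receptor that hands bacterial lipopolysaccharide to TLR4, and it is the classic surface marker of monocytes. The gene (ENSG00000170458) lies on the minus strand of chromosome 5 from 140631728 to 140633700 in hg38. Its reads numbered 37 and 41 in NC and 11 and 2 in sh-IRF1, which are normalized counts of 37.95, 42.11, 10.94 and 1.87. Both knockdown libraries were below both controls, and they differed from each other more than the controls did. The NC mean was 40.03 ± 2.94 and the sh-IRF1 mean 6.41 ± 6.41 (SD, n = 2 each), so the knockdown mean was 16.0% of control. The fitted log2 fold change was -2.81 (SE 0.582, 95% interval -3.98 to -1.63, limma adjusted p = 8.90e-05). Its size turned on which sh-IRF1 library was used, with -3.83 without sh-IRF1 replicate 1 and -1.78 without sh-IRF1 replicate 2 (limma adjusted p = 2.44e-05 and 0.00684). A fit in which the variance was not allowed to follow the level gave an adjusted p of 0.111 and lost the call.

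FCGR1A encodes CD64, the high-affinity receptor for IgG on monocytes and macrophages. It lies on the plus strand of chromosome 1 from 149782671 to 149791675 (ENSG00000150337). The 2 NC libraries held normalized counts of 1195 and 1278, and the 2 sh-IRF1 libraries 820.6 and 839.5. The groups were well apart against their spread, with means of 1236 ± 58.5 and 830 ± 13.4 (SD, n = 2 each), or 67.1% of control. It fell by 0.57 on the log2 scale (SE 0.0692, limma adjusted p = 1.84e-09), and its adjusted p was under 0.05 in 14 of 14 alternative fits, in which the log2 fold change ran from -0.62 to -0.53. In the fit without a variance trend the limma adjusted p was 0.0323. CD64 has close copies in the genome. FCGR1BP had 68 and 51 reads in NC and 31 and 22 in sh-IRF1, and FCGR1CP had 18 and 16 against 13 and 21. Together they came to 4.80 to 7.38% of the FCGR1A reads of a library, and FCGR1A summed with both gave -0.59 (limma adjusted p = 3.87e-10). How reads that match several copies were assigned is not given in the sources used here. Exonic bases that FCGR1A shares with another gene made up 8.21%.

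The windows of 250 bases before the annotated start of each member were read from RefSeq (GRCh38.p14), since IRF1 acts at promoters. The 10 genes had 13 such windows after repeats of a sequence within a gene were removed. The whole table had 35116, counted with repeats, so the shares of all windows below are on a different count. The letters searched were AANNGAAA, a core of interferon-response elements, TTCNNNGAA, the paired site that STAT proteins bind, and GAGGAA, an ETS-factor core, each on both strands, and they were chosen after the changes were known. TTCNNNGAA was in 2 of the 13 windows, against 6.57% of all windows. These were the windows of CD14 and FCGR1A, the members called lower, which are shown here for that reason, 5′ to 3′ on the strand of the gene, with the match in capitals. In CD14 (chr5:140633176-140633425, minus strand) the match began 123 bases before the start, and in FCGR1A (chr1:149782444-149782693, plus strand) 93 bases before it.
CD14: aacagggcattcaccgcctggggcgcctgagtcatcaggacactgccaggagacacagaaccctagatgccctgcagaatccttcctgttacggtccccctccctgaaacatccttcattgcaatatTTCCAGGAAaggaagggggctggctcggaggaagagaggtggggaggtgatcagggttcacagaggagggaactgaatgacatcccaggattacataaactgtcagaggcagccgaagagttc
FCGR1A: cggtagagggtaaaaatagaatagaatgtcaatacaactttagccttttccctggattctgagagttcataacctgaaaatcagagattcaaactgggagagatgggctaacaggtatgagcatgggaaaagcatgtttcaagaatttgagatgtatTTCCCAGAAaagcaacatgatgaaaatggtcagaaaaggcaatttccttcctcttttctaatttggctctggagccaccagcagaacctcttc
RefSeq puts the start of CD14 inside the GENCODE span given above, so the CD14 window lies within that span. The window of IRF1 itself also held a TTCNNNGAA match, 124 bases before its start. AANNGAAA was in 1 member window, that of CD68, where it overlapped a GAGGAA match, against 20.3% of all windows. GAGGAA was in 9 of the 13 windows, 1 each for every member but KIT, against 23.6% of all windows. A match of letters describes the window and does not show that a factor was bound there.

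CD86 encodes a costimulatory ligand for CD28 on antigen-presenting cells (ENSG00000114013, chromosome 3 from 122055362 to 122121139). Its normalized counts were 190.8 and 212.6 in NC and 141.2 and 147.1 in sh-IRF1. The means of 202 ± 15.4 and 144 ± 4.14 (SD, n = 2 each) put the knockdown at 71.5% of control. The log2 fold change was -0.48 (SE 0.163, 95% interval -0.81 to -0.15, limma adjusted p = 0.0147), past the test but short of a log2 fold change of 0.5. Passing the test depended on single libraries. It was lost without NC replicate 2 (-0.40, limma adjusted p = 0.112), without sh-IRF1 replicate 1 (-0.45, 0.0845) and without sh-IRF1 replicate 2 (-0.51, 0.0542). Without NC replicate 1 it was kept, at -0.56 (0.0178). Without a variance trend the adjusted p was 0.0503.

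CD33, a sialic acid-binding inhibitory receptor and the target of gemtuzumab ozogamicin, was the steadiest of the members (ENSG00000105383, chromosome 19 from 51225064 to 51243860). The libraries read 1125 and 1190 in NC and 1175 and 1190 in sh-IRF1, and the groups overlapped. The log2 fold change was 0.03 with a 95% interval of -0.10 to 0.16 (limma adjusted p = 0.738). The interval does not reach a change of the size seen in FCGR1A. The sign turned to -0.0098 without NC replicate 1.

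CD68, a heavily glycosylated protein of lysosomal membranes and a macrophage marker, was scarce. It had 5 and 10 reads in NC and 11 and 27 in sh-IRF1 (ENSG00000129226, chromosome 17 from 7579491 to 7582111). The sh-IRF1 libraries were the higher ones, but sh-IRF1 replicate 1 lay next to NC replicate 2. The log2 fold change was 1.09 (SE 0.634, 95% interval -0.18 to 2.37, limma adjusted p = 0.167). Other genes cover 85.6% of its exonic bases. A same-strand readthrough gene (ENSG00000264772) covers 81.6% of them and held 0 to 2 reads per library, and an opposite-strand gene (ENSG00000233223) covers 6.84% and held 45 to 74. How the counting dealt with reads in shared bases is not given in the sources used here, so the level of CD68 is uncertain in both groups. Other lysosomal and endosomal membrane proteins listed beside CD68 were well measured. Of the 4 tested, 3 rose (75%, against 20.3% of all genes) and 1 fell (25%, against 21.9%), with a median of 0.56. LAMP2 went from 5700 ± 69.8 to 8972 ± 267 (log2 fold change 0.65), LAMP1 from 4926 ± 94.2 to 7529 ± 168 (0.61) and CD63 from 2372 ± 53.0 to 3373 ± 47.0 (0.51). LAMP5 fell from 4051 ± 137 to 2732 ± 126 (-0.57).

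CD34, the sialomucin of stem and progenitor cells, was at or under 3 reads in every library (ENSG00000174059, chromosome 1 from 207880972 to 207911402). It had 1 and 3 reads in NC and 1 and 0 in sh-IRF1. The limit that 0 reads allow, 3 reads, is a normalized count of 2.81 to 3.08, so no fold change is given and a difference was not detectable at this depth. These limits cover counting error only.

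**Figure D2:**
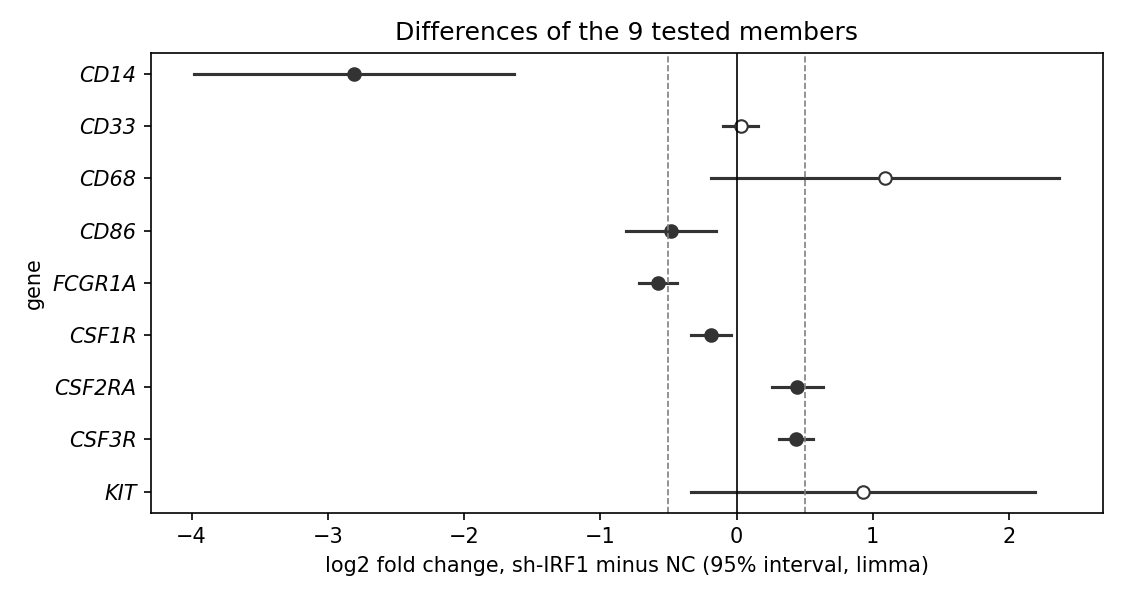
Log2 fold change of the 9 tested members, sh-IRF1 minus NC, with 95% intervals from limma. Filled points have an adjusted p under 0.05 and dashed lines mark 0.5 in either direction. CD14 at -2.81 has a wide interval at low counts, FCGR1A at -0.57 a narrow one, and CSF2RA and CSF3R both sit at 0.44.

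CSF3R encodes the receptor for G-CSF, the main growth factor of neutrophils (ENSG00000119535, minus strand of chromosome 1 from 36466043 to 36483278). Normalized counts were 1166 and 1106 in NC and 1550 and 1525 in sh-IRF1. The knockdown mean of 1538 ± 17.2 was 135% of the control mean of 1136 ± 42.5 (SD, n = 2 each). CSF3R rose by 0.44 on the log2 scale (SE 0.0612, limma adjusted p = 6.59e-08).

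CSF2RA encodes the ligand-binding chain of the GM-CSF receptor and lies in the pseudoautosomal region, given here on chromosome X from 1268800 to 1310381 (ENSG00000198223). It had normalized counts of 466.7 and 449.9 in NC and 624.7 and 623.1 in sh-IRF1. The controls and the knockdown libraries were again apart, with means of 458 ± 11.9 and 624 ± 1.13 (SD, n = 2 each), or 136% of control. CSF2RA rose by 0.44 (SE 0.0931, limma adjusted p = 0.000103). Without a variance trend the limma adjusted p was 0.0354 for CSF2RA and 0.0384 for CSF3R. CSF2RA and CSF3R each kept an adjusted p under 0.05 in 13 of 13 alternative fits, and neither reached a log2 fold change of 0.5.

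CSF1R, the tyrosine kinase receptor for M-CSF and IL-34 on monocytes and macrophages, moved least among the members that passed the test (ENSG00000182578, minus strand of chromosome 5 from 150053291 to 150113372). It had normalized counts of 941.7 and 937.8 in NC and 804.7 and 846.1 in sh-IRF1. The sh-IRF1 libraries were both lower, with means of 940 ± 2.77 and 825 ± 29.3 (SD, n = 2 each), or 87.8% of control. The log2 fold change was -0.19 (SE 0.0734, 95% interval -0.34 to -0.04, limma adjusted p = 0.0357). The call was lost whichever of the 4 libraries was left out (adjusted p = 0.0609 to 0.209), with scaling by total reads (-0.14, limma adjusted p = 0.116), without the filter (0.0566) and without a variance trend (0.123), so CSF1R passed in 6 of 13 alternative fits.

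KIT, the stem cell factor receptor of progenitors and mast cells, was scarce in these cells (ENSG00000157404, chromosome 4 from 54657267 to 54740783). It had 9 and 6 reads in NC and 14 and 18 in sh-IRF1. The sh-IRF1 libraries were the higher ones, with means of 15.4 ± 2.08 and 7.70 ± 2.17 (SD, n = 2 each). The log2 fold change of 0.93 did not pass the test (SE 0.627, 95% interval -0.33 to 2.19, limma adjusted p = 0.240). KIT reached the filter through the sh-IRF1 libraries alone, and was not tested when either of them was left out.

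Levels of different genes are compared here as normalized counts per kilobase of the union of a gene's exons. In NC, FCGR1A led at 574, followed by CD33 at 194, CSF1R at 182, CSF2RA at 112, CSF3R at 107, CD86 at 58.7, CD14 at 24.3, CD68 at 3.56, KIT at 0.680 and CD34 at 0.223. CSF2RA and CSF3R were the only neighbours in that order whose 2 NC libraries overlapped. In sh-IRF1 the order was the same except that CD68 at 8.38 stood above CD14 at 3.89, with overlapping libraries. FCGR1A stood at 385 per kilobase there and CD33 at 198. The order near the top depended on the length used. Per kilobase of the canonical transcript, CSF3R stood at 378 in NC, next after CD33 at 792 and ahead of CSF2RA at 253 and CSF1R at 246, and in sh-IRF1 CD33 at 809 exceeded FCGR1A at 623.

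**Figure D3:**
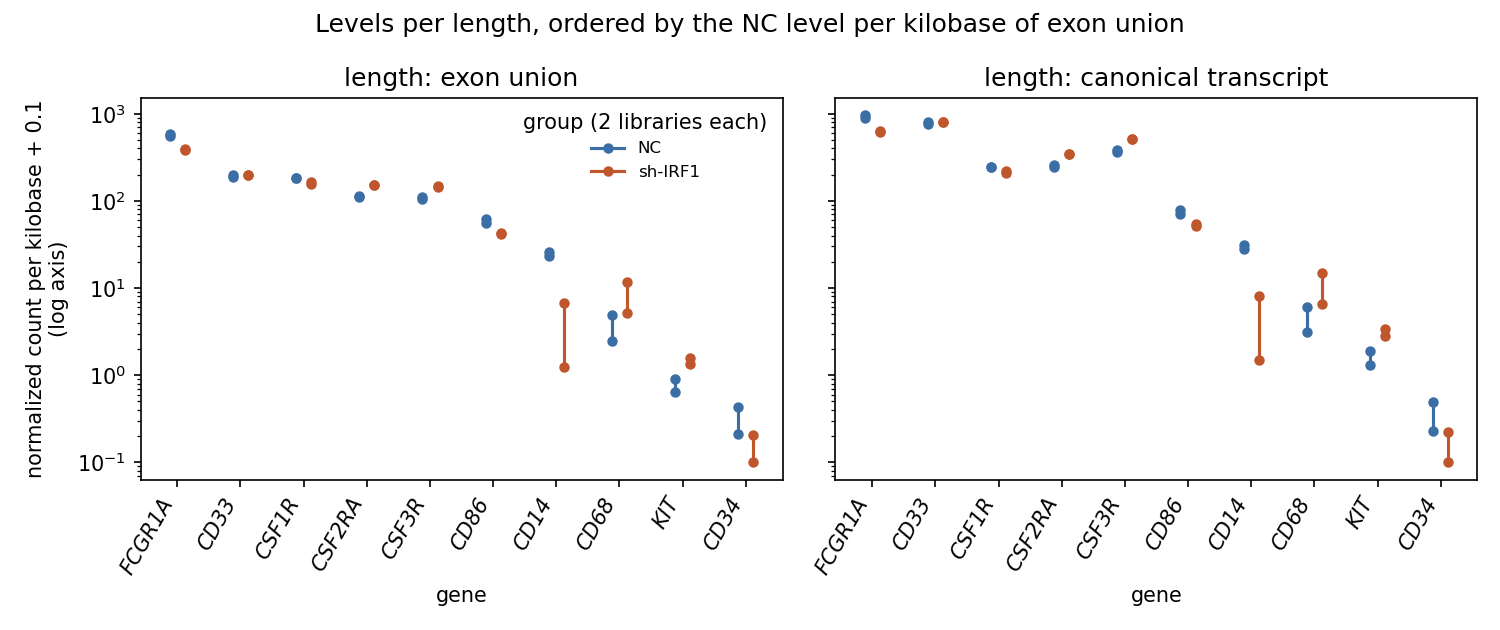
Normalized count per kilobase plus 0.1 (log axis) of each member in the 2 libraries of each group, joined by a line, with length taken as the union of exons (left) or the canonical transcript (right). FCGR1A leads at 574 in NC on the left, and CSF3R stands higher on the right, at 378 in NC, than CSF1R and CSF2RA.

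These receptors work with partner chains, and these were measured too. CSF2RB, the signaling beta chain shared by the GM-CSF, IL-3 and IL-5 receptors, had normalized counts of 1158 and 1057 in NC and 1423 and 1284 in sh-IRF1. It rose by 0.29 (SE 0.0662, limma adjusted p = 0.000345), in the direction of its alpha chain CSF2RA. IL3RA, the alpha chain of the IL-3 receptor, did not pass the test at -0.10 (limma adjusted p = 0.404). IL6R, a relative of CSF3R, rose from 2276 ± 27.0 to 3056 ± 73.9 (SD, n = 2 each), or by 0.43 (SE 0.0458, limma adjusted p = 8.86e-11). IL6ST (-0.16) and EPOR (0.20) did not pass (limma adjusted p = 0.435 and 0.135). FLT3, a class III receptor kinase like KIT and CSF1R and by far the most abundant of these transcripts, read 17391 and 17412 in NC and 12745 and 12634 in sh-IRF1, a fall to 72.9% of control (-0.46, SE 0.0268, limma adjusted p = 2.75e-19). PDGFRB, of the same class, did not pass at 0.71 (limma adjusted p = 0.105), and PDGFRA was below the filter. Of these 7 tested partners and relatives, 2 rose (28.6%, against 20.3% of all genes) and 1 fell (14.3%, against 21.9%), and the median was 0.20.

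For FCGR1A and CD14 the partners also had values. FCER1G, the signaling gamma chain that carries CD64 to the surface, fell with it from 286.2 and 289.6 to 194.0 and 169.6 (-0.66, SE 0.142, limma adjusted p = 0.000138). TLR4, which receives lipopolysaccharide from CD14, went from 677 ± 20.4 to 495 ± 29.6 (SD, n = 2 each), or -0.45 (SE 0.0906, limma adjusted p = 5.58e-05). Its accessory protein LY96 had 15 and 8 reads in NC and 23 and 24 in sh-IRF1 and did not pass at 0.95 (limma adjusted p = 0.143). TLR4 and LY96 were named after their values were seen.

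Of 11 ligands listed, 6 had a row and 2 passed the filter. CSF1, which encodes M-CSF, the ligand of CSF1R, had normalized counts of 248.2 and 240.3 in NC and of 69.6 and 87.1 in sh-IRF1. It fell by 1.64 on the log2 scale (SE 0.182, limma adjusted p = 2.24e-10), to 32.1% of control, while its receptor stood at 87.8%. KITLG, which encodes stem cell factor, had 2 and 2 reads in NC and 22 and 14 in sh-IRF1. It passed the test (limma adjusted p = 0.00844). The ratio of pooled reads, corrected for the size factors of the libraries, was 8.46 with an exact 95% counting interval of 3.03 to 32.7. That interval covers counting error only, and libraries of a group differed by more than that. KITLG reached the filter through the sh-IRF1 libraries alone.

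**Figure D4:**
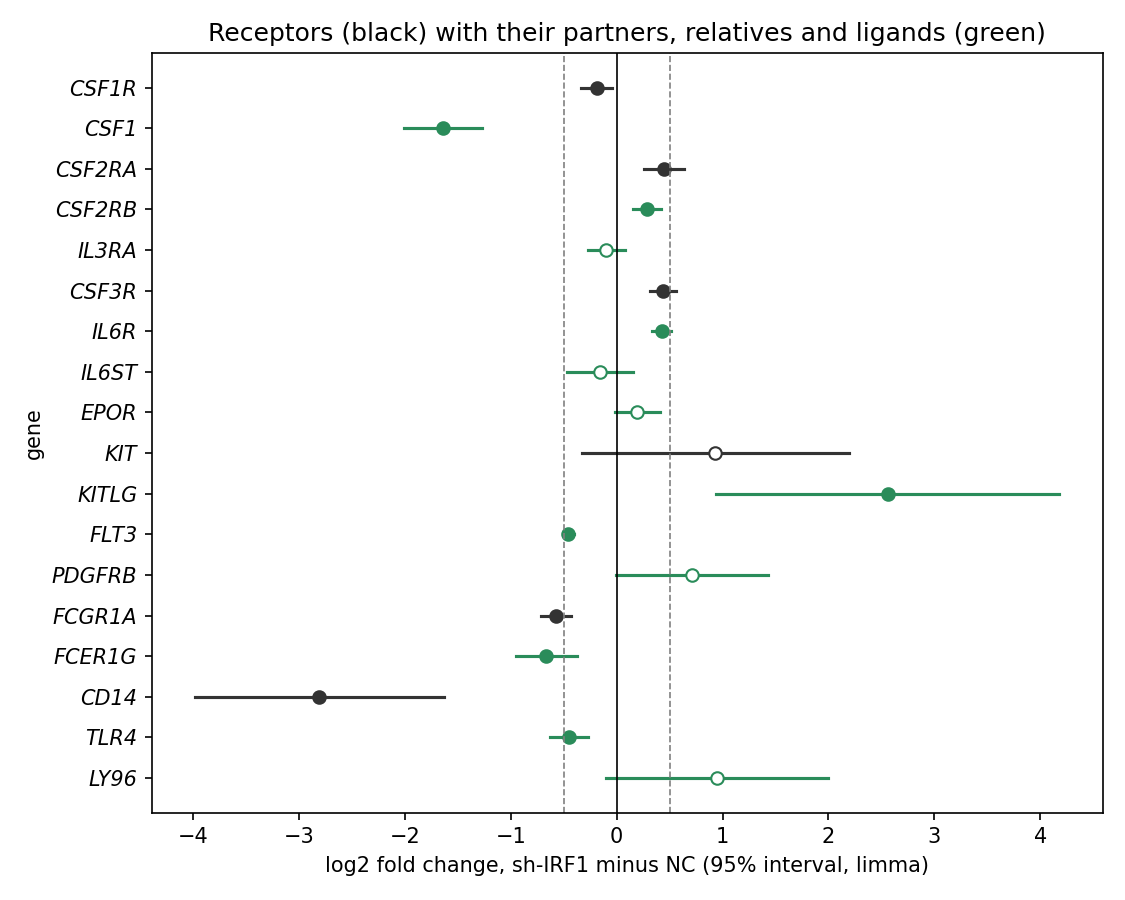
Log2 fold change, sh-IRF1 minus NC, with 95% limma intervals, for member receptors (black) and their partners, relatives and ligands (green). Filled points have an adjusted p under 0.05 and dashed lines mark 0.5. CSF1 at -1.64 lies far below its receptor CSF1R at -0.19, and CSF2RA and CSF2RB lie on the same side of 0.

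Genes that carry the receptors' signal changed in both directions. Of 28 tested, 7 rose (25%, against 20.3% of all genes), 9 fell (32.1%, against 21.9%) and 12 did not pass, with a median of -0.013. Beyond a log2 change of 0.5, 0 were higher (against 8.27% of all genes) and 1 was lower (3.57%, against 7.56%). This was SH2B3 (LNK), an adaptor known for restraining cytokine receptor signaling, which fell from 3665 ± 40.9 to 1868 ± 171 (SD, n = 2 each; -0.97, SE 0.0497, limma adjusted p = 1.59e-21).

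Other myeloid surface molecules also moved both ways. Of 33 tested, 7 rose (21.2%, against 20.3% of all genes), 12 fell (36.4%, against 21.9%) and 14 did not pass, with a median of -0.07. Beyond a log2 change of 0.5, 4 were higher (12.1%, against 8.27%) and 8 lower (24.2%, against 7.56%). The higher ones were ITGAX, the integrin chain CD11c (330 ± 24.3 to 696 ± 20.4, log2 fold change 1.08), ITGAM, the chain CD11b (142 ± 34.2 to 219 ± 23.6, 0.64), the inhibitory receptor CD300LF (0.71) and TYROBP, the adaptor DAP12 (0.58). Among the lower ones were CX3CR1, the fractalkine receptor of monocytes (303 ± 10.4 to 64.6 ± 1.36, -2.21), thrombomodulin THBD (5630 ± 13.7 to 3072 ± 1.55, -0.87), FCER1G, given above, and the chemokine receptor CCR2 (1131 ± 104 to 771 ± 53.1, -0.55). The fall of CD14, FCGR1A and CD86 was not shared by every monocyte surface gene.

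Of the 9 tested genes listed as progenitor or leukemia stem cell markers beside CD34 and KIT, 3 rose (33.3%, against 20.3% of all genes), 4 fell (44.4%, against 21.9%) and 2 did not pass, with a median of 0.14. IL2RA (CD25) rose from 31.3 ± 0.697 to 93.7 ± 2.59 (1.55, limma adjusted p = 1.05e-05), and IL1RAP, a co-receptor for IL-1, fell from 4528 ± 139 to 2448 ± 59.6 (-0.89, limma adjusted p = 1.67e-22). Of 14 tested transcription factors of myeloid and progenitor genes, 1 rose (7.14%, against 20.3% of all genes) and 7 fell (50%, against 21.9%). The other 6 did not pass, and the median was -0.14. Beyond 0.5, 4 of the 14 were lower (28.6%, against 7.56%) and 0 were higher (against 8.27%). EGR1, an early response factor used in monocyte maturation, fell from 3127 ± 66.0 to 1342 ± 18.5 (-1.22, limma adjusted p = 6.70e-25), KLF4 from 287 ± 12.8 to 164 ± 21.7 (-0.81), MITF from 53.9 ± 0.775 to 30.8 ± 1.43 (-0.79) and CEBPB from 3052 ± 57.2 to 1909 ± 4.59 (-0.68). CEBPB shares 12.6% of its exonic bases with other genes, so its value is uncertain.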

How the data were processed

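RNA was sequenced from 4 MV4-11 libraries. The submitters' processing notes name HISAT2 (2.0.5) and hg38, and the study's methods name FPKM and DESeq2. The counting tool, annotation and use of strand are not given in the sources used here. The authors deposited a normalized signal, reads divided by 1 size factor per library, and all values were whole multiples of a fixed step in each library. No other value columns were used (0 present). Reads given in the text are these multiples.

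The 14120 of 23622 genes that reached a value of 10 in 2 or more libraries were tested with limma (3.58.1, R 4.3.3, variance trend, robust) on log2(value + 1), a scale that understates changes of low genes, and p-values were adjusted by Benjamini-Hochberg. A call needed an adjusted p under 0.05 and a log2 fold change beyond 0.5. Tests that assume raw counts were planned only as alternatives. The smallest exact two-sided permutation p of 2 against 2 is 0.333, so no single-gene permutation test was used. On simulated data of 14080 genes for this comparison, 186 of 200 changed genes were recovered. These all had a log2 fold change of 1 in either direction and mean levels above those of CD68 and KIT. The variation between libraries was set, not taken from the data. The recovery therefore does not apply to smaller changes or to scarce genes.

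Symbols matched 23456 identifiers. Positions and lengths came from GENCODE 44, and promoters from RefSeq. Libraries of a group differed by more than sampling noise (chi-square per gene 2.52 in NC, 2.37 in sh-IRF1).

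Members and lists were chosen with earlier results of these data known. Named genes were IRF1, the members, all tested partners and relatives, and up to 4 called genes per direction and list by smallest p. Alternatives covered scaling, filter, pseudocount, thresholds, variance model, replicate block, each library left out and gene length, and the sum of FCGR1A with its copies, added after seeing the data.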

Additional observations from a re-analysis of the deposited data

How the results depend on the processing

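The count of members called, 2, was 1 with a filter of 50 (CD14 was then not tested), 1 without a variance trend, 1 beyond a log2 fold change of 1, 6 at any fold change, and 2 to 3 with a library left out. Members with an adjusted p under 0.05, 6, numbered 3 without a variance trend and 4 to 5 with a library left out. Genes called, 2235, numbered 5953 at any fold change (2861 higher, 3092 lower), 707 beyond 1 (389 higher, 318 lower) and 1838 to 2175 with a library left out. Scaling by total reads gave 1383 higher and 878 lower, against 1168 and 1067. CD33 ran from -0.0098 (reversed, without NC replicate 1) to 0.071 with a library left out. IRF1 kept its call in 13 of 13 alternatives. Of the members' fold changes under the alternatives, 100 kept direction and side of the threshold, 12 lost significance and 1 reversed. The deviations of same-numbered libraries had r = -0.0154 over 14120 genes. With 2 libraries per group this value only changes its sign with the numbering. It cannot tell whether the samples were prepared as pairs, which the labels do not say. The fit with the replicate block called 2240 genes and 2 members. TMM scaling and the count tests edgeR and DESeq2 were not run. All values were whole multiples of a step, but the step of sh-IRF1 replicate 1 (0.995) lay too near 1 for the rule that admits recovered reads to a count test. CD14, CD34, CD68 and KIT are limited by depth, at 0 to 41 reads per library.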

Other observations

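The other 4 surface molecules that were lower beyond a log2 change of 0.5 were mostly scarce, and are named after their values were seen. CD40, the receptor through which T cells activate antigen-presenting cells, had 46 and 43 reads in NC and 11 and 12 in sh-IRF1 (log2 fold change -1.95, SE 0.431, limma adjusted p = 0.000218). FCGR2B, the inhibitory low-affinity IgG receptor, had 43 and 31 reads against 8 and 9 (-2.07, SE 0.490, limma adjusted p = 0.00052). It reached the filter through the NC libraries alone, and its near-identical relatives make the assignment of its reads uncertain. LILRB2, an inhibitory receptor for MHC class I, went from 216 ± 19.1 to 143 ± 31.5 (SD, n = 2 each; -0.61, SE 0.168, limma adjusted p = 0.0028). SIGLEC7, a relative of CD33, had 25 and 38 reads against 10 and 20 (-1.15, SE 0.463, limma adjusted p = 0.0409), with 27.5% of its exonic bases shared with an opposite-strand gene.

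Among the lineage markers summed above, the B-cell receptor chain CD79A rose from 46.7 ± 5.04 to 220 ± 42.6 (SD, n = 2 each; 2.20, limma adjusted p = 4.46e-12). MPO, the granule enzyme of myeloid precursors and a marker in the myelomonocytic list, fell from 460 ± 24.3 to 172 ± 18.9 (-1.42, limma adjusted p = 7.78e-13). Of the 9 markers in that list, 1 was called lower (MPO) and 2 higher, ITGAM (given above) and LYZ. LYZ rose from 1804 ± 27.4 to 3247 ± 40.4 (0.85, limma adjusted p = 3.83e-20). Of its exonic bases, 34.7% are shared with an opposite-strand gene. CD79A, MPO and LYZ are named after their values were seen.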
